A study of Xenopus tropicalis with 31 samples.

Results

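Ep300 peaks of ectoderm and endoderm were compared within embryos depleted of Foxi2 and Sox3, to see how far the 2 germ layers kept separate sets of Ep300-bound regions without these factors. The members are all peaks of the 2 Ep300 lists from FS morphants, 3593 in ectoderm and 11247 in endoderm, or 14840 of the 190255 regions in all lists of the series. FS morphants are *Xenopus tropicalis* embryos injected with translation-blocking morpholinos against *foxi2* and *sox3*. Per the methods of the study, morpholinos were injected into the animal side of embryos at the 1-cell stage or into both animal blastomeres at the 2-cell stage. The endoderm was thus dissected from the side of the embryo that was not the site of injection. How much morpholino reached its cells is not stated, so the endoderm cannot be taken as uninjected. Ectoderm and endoderm were dissected at stage 10.5, the early gastrula. The comparison group is tissue of wild-type embryos from the same experiment (5552 peaks in ectoderm, 11597 in endoderm). No list from embryos with a control morpholino was analysed here, so an effect of injection itself and an effect of losing the factors cannot be told apart.

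Ep300 (p300) is a histone acetyltransferase and coactivator that does not bind DNA by itself. It is brought to enhancers and promoters by transcription factors, acetylates H3K27 there, and is widely used to map active enhancers. The ectoderm arises from the animal side of the frog embryo and gives rise to epidermis and nervous system, while the vegetal side forms the endoderm under VegT and Nodal signalling. Foxi2, a forkhead protein, and Sox3, a SoxB1 protein, are supplied maternally and are enriched on the animal side.

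Each of the 4 Ep300 groups had 2 replicates that the authors combined into 1 list, so replicate error is not available for any value and no test across embryos could be made. Shares are given with Wilson 95% intervals, and differences between shares with Newcombe intervals built from them. Both cover counting error only. Read depths are unknown, and a region without a peak is one that missed the authors' threshold in that tissue, not one shown to lack Ep300. Strength is the fold enrichment of ChIP over input DNA at the peak summit. Its median was 9.40 in FS morphant ectoderm (quartiles 7.27 and 12.9) and 9.58 in FS morphant endoderm (7.46 and 13.3). The series holds 1 stage 10.5 input library per tissue, so FS morphant and wild-type values of a tissue share their input and are set side by side as values that are not independent.

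Most Ep300 regions of FS morphants were called in 1 germ layer. Peaks were shared when they had at least 1 bp in common with a peak of the other tissue. In ectoderm, 1958 of 3593 peaks were ectoderm-only (54.5%, 52.9 to 56.1), and in endoderm, 9639 of 11247 peaks were endoderm-only (85.7%, 85.0 to 86.3). The shared remainder comprised 1635 ectoderm peaks (45.5%) and 1608 endoderm peaks (14.3%). In wild-type tissue the tissue-only shares were 57.7% in ectoderm and 80.2% in endoderm. The FS morphant minus wild-type difference was -3.25 percentage points for the ectoderm-only share (-5.33 to -1.17) and 5.47 points for the endoderm-only share (4.49 to 6.44). These shares depend on list length, because the endoderm list is the longer one. With both FS morphant lists brought to 3593 peaks by −log10 p, 73.8% of ectoderm and 74.5% of endoderm peaks were tissue-only. With all 4 lists at that length, the difference from wild-type was -1.25 points for the ectoderm-only share, and for the endoderm-only share it turned from 5.47 to -1.11 points. Requiring an overlap of 50% of each peak gave -1.58 points for the ectoderm-only share.

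The classes were well separated in position. The overlap of shared peaks had a median of 554 bp, and 0 of them shared 50 bp or less with their partner. Their summits lay a median of 26.0 bp apart over all overlapping pairs. Ectoderm-only peaks lay a median of 44.9 kb from the nearest endoderm peak, and 81 of them had one within 1000 bp. Endoderm-only peaks lay a median of 153 kb from the nearest ectoderm peak, and 178 of them had one within 1000 bp. These distances depend on the number of peaks in the other list, 11247 in endoderm and 3593 in ectoderm. They were not compared with random spacing, so they do not show that the classes are spatially separate. The ectoderm-only share ran from 49.9% on chromosome 5 to 60.9% on chromosome 10, and the endoderm-only share from 82.6% on chromosome 7 to 87.4% on chromosome 6. Ectoderm-only peaks overlapped a protein-coding gene body in 56.9% of cases (54.7 to 59.1), against 49.6% (48.6 to 50.6) of endoderm-only peaks. Of the endoderm-only peaks, 23.1% (22.2 to 23.9) lay over 20 kb from any gene, against 16.1% (14.5 to 17.8) of the ectoderm-only peaks. Wild-type classes were alike in this. There, 56.5% of ectoderm-only and 49.5% of endoderm-only peaks overlapped a gene body, and 16.3% and 23.8% lay over 20 kb from any gene.

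Shared regions were the stronger ones in both tissues. The median fold enrichment was 8.31 at ectoderm-only peaks and 11 at shared ectoderm peaks, and it was 9.20 at endoderm-only and 13.3 at shared endoderm peaks. The interquartile ranges overlapped, from 6.79 to 11 at ectoderm-only and from 8.24 to 15.6 at shared ectoderm peaks. When ectoderm peaks were placed in 10 equal bins of fold enrichment, 25.3% (21.1 to 30.0) were shared in the weakest bin and 78.3% (73.7 to 82.2) in the strongest. For endoderm the shares were 7.82% (6.39 to 9.54) and 35.0% (32.2 to 37.8). In wild-type tissue the strongest bins were shared in 77.7% and 37.4%, and the weakest in 26.3% and 15.8%. The FS morphant endoderm share lay below wild-type in all 10 bins, with the smallest gaps in the strongest bins. These bins use lists of full length. The FS morphant ectoderm list holds 3593 peaks against 5552 in wild-type, so fewer partners were available in every bin. With all 4 lists at equal length, the endoderm-only difference from wild-type was -1.11 points.

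**Figure D1:**
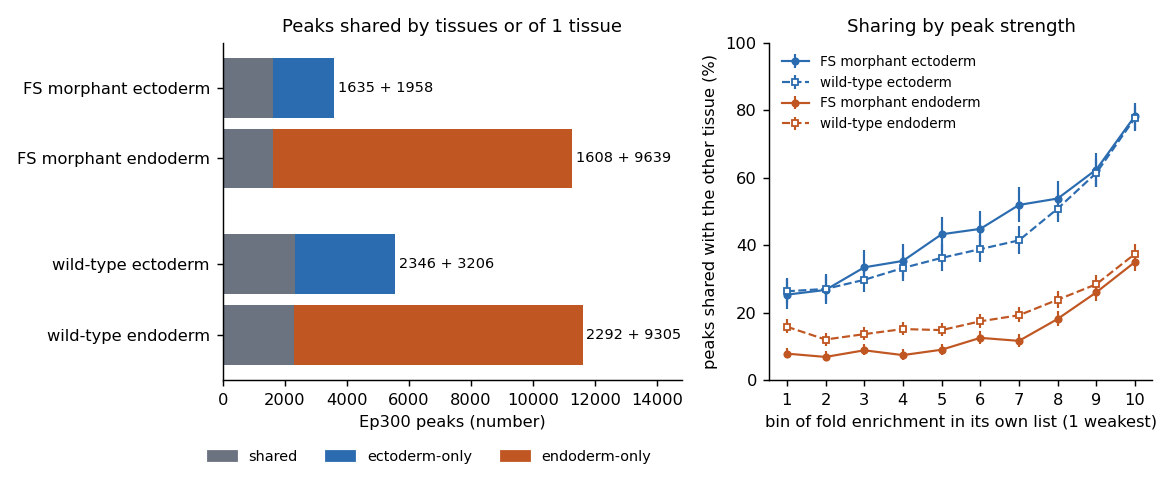
Left, number of Ep300 peaks per list, divided into peaks shared with the other tissue (grey) and peaks of 1 tissue (blue, ectoderm; orange, endoderm). Right, percentage of peaks shared with the other tissue in 10 bins of fold enrichment, with Wilson 95% intervals. The FS morphant ectoderm list holds 1635 shared and 1958 ectoderm-only peaks, and sharing rises from 25.3% to 78.3% from the weakest to the strongest bin of that list.

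Wild-type Foxi2 and Sox3 peaks of whole embryos show where the factors bind when present, and were laid over the FS morphant classes. Regions that overlapped peaks of both factors at stage 10.5 are called co-bound. Of ectoderm-only peaks, 18.8% (17.2 to 20.6) were co-bound, 26.8% (24.8 to 28.8) overlapped Sox3 alone, 1.53% Foxi2 alone, and 52.9% (50.6 to 55.1) neither factor. Of shared ectoderm peaks, 55.7% (53.2 to 58.0) were co-bound and 16.5% (14.7 to 18.3) overlapped neither. Endoderm-only peaks were co-bound in 12.3% (11.6 to 12.9) and free of both factors in 69.4% (68.5 to 70.3). The co-bound share of ectoderm-only peaks was thus 36.8 points below that of shared peaks (a difference of -36.8, interval -39.7 to -33.8), and within bins of equal fold enrichment the difference was -31.6. Endoderm-only peaks differed from shared endoderm peaks by -43.1 points (-45.6 to -40.6).

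The ectoderm-only class was where FS morphants departed most from wild-type tissue in factor sites. In wild-type, 40.9% of ectoderm-only peaks were co-bound, 32.2% overlapped Sox3 alone and 23.9% neither factor. The co-bound share of ectoderm-only peaks differed by -22.1 points between FS morphants and wild-type (-24.5 to -19.6). Shared ectoderm peaks were co-bound in 68.1% in wild-type, against 55.7% in FS morphants. Endoderm-only peaks went the other way, from 8.39% co-bound in wild-type (7.85 to 8.97) to 12.3% in FS morphants. Blastula binding was also set against the classes. Foxi2 at stage 8 overlapped 18.3% of ectoderm-only, 49.6% of shared ectoderm and 15.7% of endoderm-only peaks of FS morphants. Sox3 at stage 8 overlapped 4.39%, 12.3% and 13.2% of these classes, so Sox3 at stage 8 was the one factor list that overlapped a smaller share of ectoderm-only than of endoderm-only peaks.

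The histone marks of wild-type tissue divided the classes along germ layer lines. H3K27ac marks active enhancers and promoters, H3K27me3 is the mark of Polycomb repression, and both lists hold regions stitched by the authors, which are wider than Ep300 peaks. Ectoderm H3K27ac covered 74.5% (72.5 to 76.4) of ectoderm-only and 74.2% (72.0 to 76.3) of shared ectoderm peaks, but 28.6% (27.7 to 29.5) of endoderm-only peaks. Endoderm H3K27ac covered 37.2% (35.1 to 39.3), 76.9% (74.8 to 78.9) and 53.7% (52.7 to 54.7) of the same classes. Ectoderm-only peaks therefore fell short of shared peaks in endoderm H3K27ac (-39.8 points, -42.7 to -36.7), and endoderm-only peaks in ectoderm H3K27ac (-46.2 points, -48.5 to -43.9). Within bins of equal fold enrichment these differences were -37.8 and -46.5. H3K27ac was found in ectoderm alone at 40.7% of ectoderm-only peaks and in endoderm alone at 3.32%. At endoderm-only peaks the corresponding shares were 5.25% and 30.4%, and 41.1% (40.1 to 42.1) of endoderm-only peaks had H3K27ac of neither tissue, against 22.2% (20.4 to 24.1) of ectoderm-only peaks. Wild-type ectoderm-only peaks had ectoderm H3K27ac in 84.4%, in ectoderm alone in 50.8%, and H3K27ac of neither tissue in 13.7%. Wild-type endoderm-only peaks had endoderm H3K27ac in 53.9% and H3K27ac of neither tissue in 41.3%.

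H3K27me3 in ectoderm covered 28.6% of ectoderm-only, 34.5% of shared ectoderm and 25.4% of endoderm-only peaks. In endoderm it covered 19.7%, 34.9% and 41.0%. The endoderm-only class thus had its highest H3K27me3 share in its own tissue (41.0%), while ectoderm-only peaks had H3K27me3 more often in ectoderm (28.6%, 26.6 to 30.6) than in endoderm (19.7%, 18.0 to 21.5). Wild-type ectoderm-only peaks carried less of the mark, 21.3% in ectoderm and 13.2% in endoderm.

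**Figure D2:**
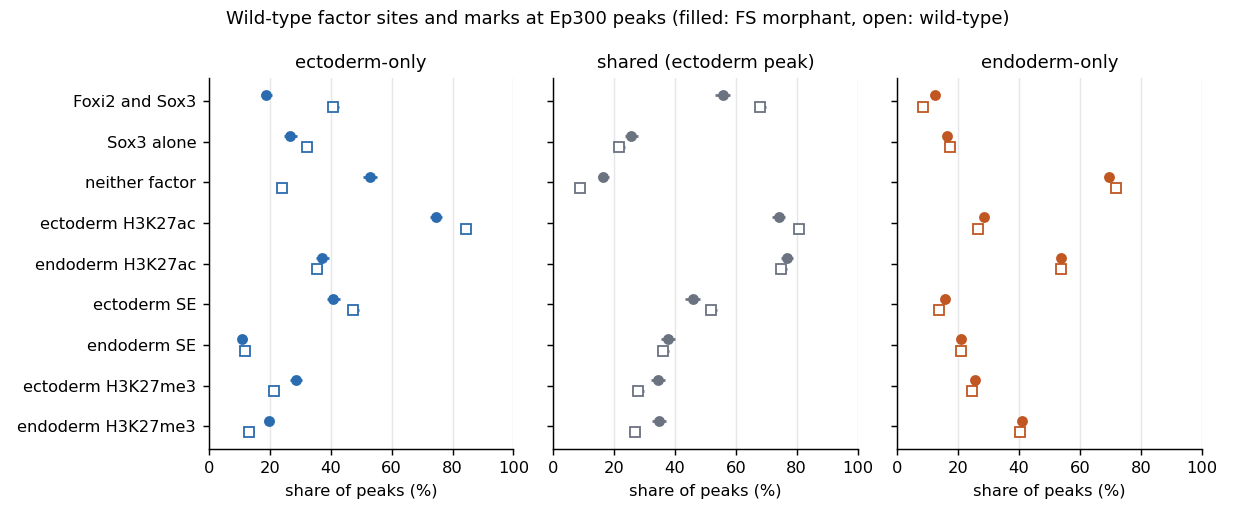
Percentage of Ep300 peaks in each class that overlap wild-type Foxi2 or Sox3 peaks of stage 10.5, H3K27ac regions, super-enhancers (SEs) or H3K27me3 regions, with Wilson 95% intervals where wider than the symbol. Filled circles are FS morphant and open squares wild-type lists. At ectoderm-only peaks the co-bound share is 18.8% in FS morphants and 40.9% in wild-type. Ectoderm H3K27ac there is 74.5% and 84.4%, and endoderm H3K27ac 37.2% and 35.5%.

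Super-enhancers (SEs) are long clusters of strongly acetylated regions near genes of cell identity. Ectoderm SEs held 40.8% (38.7 to 43.0) of ectoderm-only peaks, 45.8% of shared ectoderm peaks and 15.7% of endoderm-only peaks. Endoderm SEs held 11%, 37.7% and 21%. Among the 767 SEs called in ectoderm alone, 62.8% (59.4 to 66.2) had an FS morphant ectoderm peak, against 87.2% (84.7 to 89.4) with a wild-type ectoderm peak. Endoderm peaks were found in 56.2% (52.7 to 59.7) of these SEs in FS morphants and in 58.5% (55.0 to 62.0) in wild-type. These SEs contained 586 ectoderm-only and 577 endoderm-only peaks in FS morphants, against 1108 and 465 in wild-type. Shared ectoderm peaks in them numbered 303 in FS morphants and 534 in wild-type. An endoderm peak whose ectoderm partner is not called counts as endoderm-only, so 577 against 465 does not show a gain of endoderm peaks. The ectoderm lists also differ in length, at 3593 and 5552 peaks. In the 283 SEs called in endoderm alone, 92.9% (89.3 to 95.4) had an FS morphant endoderm peak and 35.0% (29.7 to 40.7) an ectoderm peak, with 93.6% and 43.8% in wild-type. The endoderm ranking carries the name of the animal pole library on its signal column, so which library ranked the endoderm SEs is not settled.

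To follow single regions between conditions, the 4 lists were merged into 16876 regions. FS morphants had a peak at 13079 of them, of which 1945 were ectoderm only (14.9%), 1590 both tissues (12.2%) and 9544 endoderm only (73.0%). In wild-type, the 14706 regions were ectoderm only in 21.7%, both in 15.5% and endoderm only in 62.8%. Few regions crossed from one germ layer to the other. Of 3188 wild-type ectoderm-only regions, 43 (1.35%, 1.00 to 1.81) were endoderm only in FS morphants, and of 9240 wild-type endoderm-only regions, 31 (0.335%, 0.236 to 0.476) were ectoderm only.

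The most frequent change was a wild-type ectoderm peak that was not called in FS morphants. The shares in this paragraph use lists of full length. Ectoderm has 5552 peaks in wild-type and 3593 in FS morphants, which limits how many ectoderm regions can be kept. The endoderm lists are closer in length, at 11597 and 11247. Wild-type ectoderm-only regions kept their state in 30.8% (29.2 to 32.4) and had no FS morphant peak in 66.1% (64.4 to 67.7), whereas wild-type endoderm-only regions kept their state in 80.3% (79.5 to 81.1). Of 2278 regions with Ep300 in both wild-type tissues, 1183 (51.9%, 49.9 to 54.0) remained in both, 695 (30.5%, 28.7 to 32.4) were endoderm only in FS morphants and 186 (8.17%) were ectoderm only. The 695 regions left with an endoderm peak alone were co-bound in 75.3% (71.9 to 78.3), and 3.31% of them overlapped neither factor. Among wild-type ectoderm-only regions, 19.3% (17.3 to 21.6) of co-bound and 49.1% (45.6 to 52.7) of factor-free regions stayed ectoderm only. Among regions of both wild-type tissues, 33.6% (31.3 to 36.0) of co-bound and 11.4% (7.71 to 16.5) of factor-free regions became endoderm only, while 50.6% and 50.5% stayed in both. Wild-type peaks that were lost were also weaker. The median wild-type ectoderm fold enrichment was 7.65 at ectoderm-only regions without an FS morphant peak and 8.69 at those that stayed ectoderm only.

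**Figure D3:**
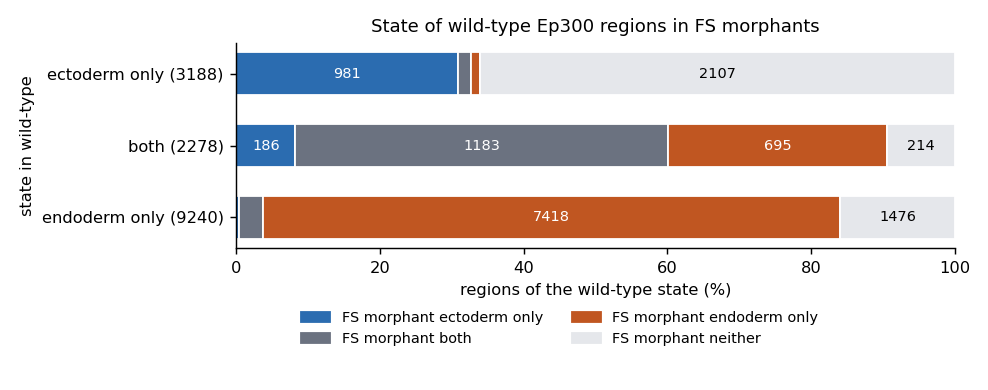
Horizontal bars show, for merged Ep300 regions of each wild-type state (number in brackets), the percentage in each state of FS morphants, with numbers of regions printed on the larger segments. The segment without an FS morphant peak takes 66.1% of wild-type ectoderm-only regions and 16.0% of wild-type endoderm-only regions. Lists are of full length, and the FS morphant ectoderm list (3593 peaks) is shorter than that of wild-type (5552).

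Regions also entered the FS morphant lists. Of the 1958 ectoderm-only FS morphant peaks, 50.4% (48.2 to 52.6) were wild-type ectoderm only, 9.70% were in both wild-type tissues, 1.74% (1.25 to 2.42) in endoderm only, and 747 (38.2%, 36.0 to 40.3) in neither wild-type list. Adding the 2 wild-type lists of the first Ep300 experiment, 33.5% (31.4 to 35.6) were in none of 4 wild-type lists. The 747 peaks were weaker than the 1177 that were in the wild-type ectoderm list, with medians of 7.41 and 9.31. They were co-bound in 2.28% (1.43 to 3.61) against 29.7% (27.2 to 32.4), and overlapped ectoderm H3K27ac in 62.1% (58.6 to 65.5) against 82.8% (80.6 to 84.9). Factor sites and marks are from wild-type embryos, and the 747 peaks were picked for lacking a wild-type Ep300 peak. These shares are thus not independent of that choice. Of the endoderm-only peaks, 14.4% (13.7 to 15.1) were in neither wild-type list, with a median fold enrichment of 6.75 against 9.96 at those in the wild-type endoderm list. H3K27ac of neither tissue marked 60.9% (58.3 to 63.4) of these 1388 peaks. Their co-bound share was likewise low, at 1.59% against 13.9% at those in the wild-type endoderm list.

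A further 315 regions were endoderm only in wild-type and had peaks in both tissues of FS morphants (3.41% of wild-type endoderm-only regions, 3.06 to 3.8). Their median fold enrichment in FS morphants was 8.24 in ectoderm and 14.1 in endoderm, and 22.2% (18.0 to 27.1) were co-bound. In wild-type endoderm their median was 13.1, against 9.54 at regions that stayed endoderm only. The shares by factor binding that follow were not matched for strength. Wild-type endoderm-only regions gained an ectoderm peak in this way in 9.04% (7.22 to 11.3) of 774 co-bound and in 1.81% (1.51 to 2.16) of 6641 factor-free regions. Together with the regions that stayed shared, they left 94.2% (92.9 to 95.2) of shared FS morphant ectoderm peaks in the wild-type endoderm list, and 77.3% (75.2 to 79.3) in the wild-type ectoderm list.

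Sharing a region did not mean equal strength. Of the shared peaks, 1555 paired 1 to 1. Their fold enrichment was a median of 11.1 in ectoderm and 13.2 in endoderm, and the log2 ratio of endoderm over ectoderm had a median of 0.13 with quartiles of -0.37 and 0.70. Endoderm was over 1.5-fold higher at 461 pairs (29.6%, 27.4 to 32.0) and ectoderm at 261 (16.8%, 15 to 18.7). The balance depends on scaling, since dividing each tissue by its median over the pairs gave 19.1% and 27.1%. In wild-type, 2211 pairs had a median log2 ratio of 0.04, with 23.4% over 1.5-fold higher in endoderm and 20.7% in ectoderm.

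The pairs that were unequal differed in their marks. Pairs stronger in ectoderm overlapped ectoderm H3K27ac in 88.1% (83.6 to 91.5) and ectoderm SEs in 62.1% (56.0 to 67.7), against 64.2% (59.7 to 68.5) and 35.4% (31.1 to 39.8) of pairs stronger in endoderm. Pairs stronger in endoderm overlapped endoderm H3K27ac in 83.3% (79.6 to 86.4) and endoderm H3K27me3 in 44.5%, against 68.6% (62.7 to 73.9) and 27.2% of pairs stronger in ectoderm. The co-bound shares were 52.1% (46.1 to 58.1) and 56.8% (52.3 to 61.3), with overlapping intervals. At the 1183 regions with a peak in all 4 lists, endoderm was higher than ectoderm in 52.5% in FS morphants and 55.8% in wild-type. For the 788 co-bound regions among them the values were 58.0% and 55.6%, and for the 102 factor-free regions 19.6% and 31.4%.

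**Figure D4:**
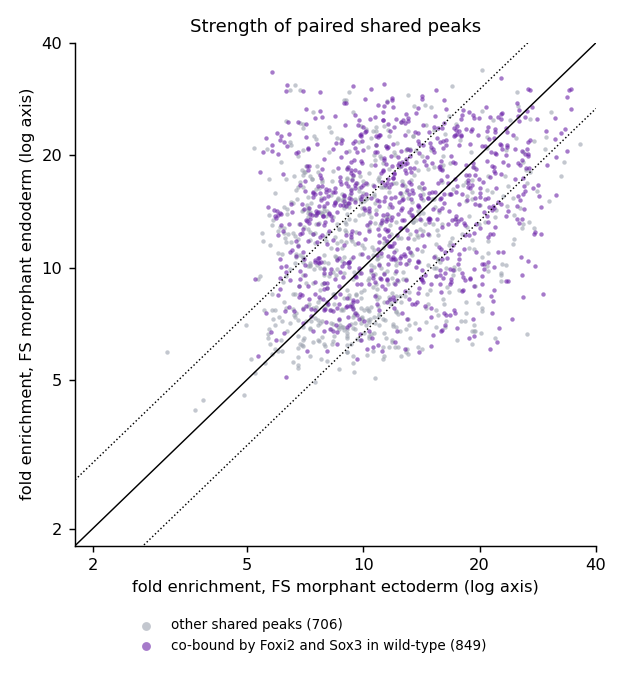
Each point is 1 of 1555 shared peaks paired 1 to 1, with fold enrichment over input in FS morphant ectoderm on the x axis and in FS morphant endoderm on the y axis, both log axes. Purple points are co-bound by Foxi2 and Sox3 in wild-type embryos, the solid line marks equality and dotted lines mark 1.5-fold. Above the upper dotted line lie 461 pairs and below the lower one 261.

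The strongest regions of each class had different settings. Coordinates are those of the lists, in *X. tropicalis* assembly UCB_Xtro_10.0, and genes are from RefSeq. Of the 4 strongest ectoderm-only peaks, 2 had no wild-type peak in either tissue. The strongest, at Chr6:44971088-44972003 and 47349 bp from *satb1*, which encodes a chromatin organizer, had a fold enrichment of 30.9 in FS morphant ectoderm and 8.98 in wild-type ectoderm, overlapped neither factor and lay in ectoderm H3K27ac. The next, at Chr2:71992108-71992688 8124 bp from the macrophage growth factor gene *csf1* (28.1), and Chr7:82875779-82876846, with the adhesion gene *cadm1* as nearest gene at 249216 bp (27.3), had no wild-type Ep300 peak, overlapped Sox3 alone and lay in H3K27me3 of both tissues. The peak at Chr4:15794942-15796103 inside *mybpc3*, a sarcomere gene, had 26.9 in FS morphant and 23.8 in wild-type ectoderm. None of the 4 was co-bound.

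The 4 strongest endoderm-only peaks changed little in strength from wild-type endoderm. The peak inside *cdk15* at Chr9:52112703-52114082 had fold enrichments of 34.4 in FS morphant and 34.5 in wild-type endoderm. That inside *macrod2* at Chr5:28526654-28528151 had 32.6 and 30.2, and that 9103 bp from *rnd1* had 31.7 and 28.9. The peak at Chr4:135356711-135358234, 45111 bp from *gata2*, had 31.7 and 29.8 in endoderm, and had 8.11 in wild-type ectoderm but no FS morphant ectoderm peak. Of these 4, 3 were co-bound and the *rnd1* peak overlapped Sox3 alone. All 4 were inside endoderm H3K27ac and endoderm SEs.

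The 4 strongest shared pairs were all co-bound. The first, at Chr7:26907902-26908962 and 2067 bp from *ventx2.1*, a homeobox gene downstream of BMP, had 34.4 in ectoderm and 30.0 in endoderm (26.4 and 28.6 in wild-type). The others lay 170023 bp from the Notch ligand gene *jag2* (34.1 and 29.8), 28481 bp from *kctd1* (33.7 and 28.6) and 95620 bp from *snx7* (27 and 29.8). Those near *jag2*, *kctd1* and *snx7* lay in H3K27me3 of both tissues, and that near *ventx2.1* in SEs of both. The *jag2* and *snx7* regions also lay in H3K27ac of both tissues, and the *kctd1* region in H3K27ac of neither. The most unequal pairs toward endoderm were near *slc38a3* (5.82 in ectoderm and 33.3 in endoderm, log2 ratio 2.52), inside *gata4* (6.35 and 30.9, 2.28), an endodermal GATA factor gene, and near *sp5l* (6.33 and 29.7, 2.23). Those toward ectoderm were near *chst9l.4* (26.5 and 6.64, log2 ratio -2.0), 163858 bp from the neural progenitor factor gene *sox2* (21.2 and 6.05, -1.81), and near the Wnt receptor gene *fzd8* (22.1 and 6.32, -1.81). The *chst9l.4* region, at Chr8:108010235-108010856, had no wild-type peak in either tissue.

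Genes of 5 lists were then examined for Ep300 peaks within 20 kb of the gene body. Of 21749 protein-coding genes, 6.85% had more ectoderm than endoderm FS morphant peaks, 26.1% had more endoderm peaks, 15.2% had an ectoderm peak and 31.5% an endoderm peak. Of the 101 listed genes, 99 were matched in RefSeq. Listed genes that neighbour each other (*nodal1* and *nodal2*, the *sox17* genes, the *ventx* genes, *mix1* and *mixer*, the *pou5f3* genes, *dlx5* and *dlx6*) share peaks, so the counts are also given as distinct merged regions.

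Genes of the endoderm stayed apart from ectoderm. All but 1 of the 24 endoderm genes had more endoderm than ectoderm peaks, in FS morphants as in wild-type, and 0 had more ectoderm peaks. The longer endoderm list favours this count. With both FS morphant lists at the length of the shorter, 19 of the 24 had more endoderm peaks. Around them were 89 distinct FS morphant regions, of which 76 were endoderm only (85.4%, 76.6 to 91.3), 12 in both tissues and 1 ectoderm only, against 78, 11 and 0 in wild-type. Of the 89 wild-type endoderm regions near these genes, 82 (92.1%, 84.6 to 96.1) had an FS morphant endoderm peak, against 83.4% (82.8 to 84.1) over all regions. This was not particular to endoderm genes. Near genes of the other lists the share ran from 87.5% (neural) to 92.3% (epidermal). The gene without peaks was *nodal5*. *nodal1* and *nodal2*, which encode Nodal ligands, had the same 9 endoderm peaks and 0 ectoderm peaks in their windows, against 7 and 1 in wild-type. Its strongest region, at Chr3:132126679-132127953, had a fold enrichment of 26.5 in FS morphant and 26.9 in wild-type endoderm.

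*sox17a*, the SoxF endoderm factor gene, had 8 endoderm and 0 ectoderm peaks in its window, and 7 of the 8 merged regions were endoderm only. The ectoderm peak of the other region lay outside the window. *mix1*, a Mix homeobox factor gene, had 7 endoderm and 0 ectoderm peaks in FS morphants. The region at the *mix1* gene, Chr5:8056612-8057650, had 23.1 in FS morphant and 22.4 in wild-type endoderm. In the windows of *sox17a* and *mix1* the FS morphant and wild-type endoderm counts differed by at most 1 peak.

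A few endoderm genes had ectoderm peaks in FS morphants that were weaker or not called in wild-type ectoderm. *vegt*, the vegetal T-box factor gene, had 1 ectoderm peak in wild-type against 3 in FS morphants. At Chr1:152847914-152849040 beside *vegt*, fold enrichment in ectoderm was 6.08 in wild-type against 17.9 in FS morphants, with 20.6 and 24.9 in endoderm. At Chr1:152858344-152860301 inside *vegt*, no wild-type ectoderm peak was called and the FS morphant ectoderm value was 16.2, with 27 and 28.1 in endoderm. Both regions were co-bound. *foxa4*, an organizer forkhead factor gene, had ectoderm values of 6.29 and 8.78 in wild-type and of 20.3 and 20.7 in FS morphants at the regions 13.3 and 9.86 kb below it, while endoderm values went from 32.1 to 33.9 and from 25.1 to 26.9. *bix1.1*, a Mix/Bix homeobox gene, had 0 wild-type ectoderm peaks and 2 in FS morphants, of 6.25 and 5.61. Over the whole endoderm list, however, the ectoderm peak count was 15 in FS morphants and 14 in wild-type, and 8 genes had an ectoderm peak against 11.

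Around epidermal genes, as over all regions, a larger share of wild-type endoderm than of wild-type ectoderm regions was kept in FS morphants. Of 20 genes, 8 had more ectoderm and 8 more endoderm peaks in FS morphants, against 13 and 5 in wild-type. With both FS morphant lists at the length of the shorter, 12 of the 20 had more ectoderm peaks. The 20 windows held 30 ectoderm and 42 endoderm peaks in FS morphants, against 64 and 40. As distinct regions, 15 were ectoderm only, 13 both and 28 endoderm only, against 37, 23 and 16 in wild-type. Of 60 wild-type ectoderm regions near epidermal genes, 23 had an FS morphant ectoderm peak (38.3%, 27.1 to 51.0). Over all wild-type ectoderm regions the share was 44.0% (42.7 to 45.4), within the interval for epidermal genes. Of 39 wild-type endoderm regions near them, 36 were kept (92.3%, 79.7 to 97.3), an interval that holds the 83.4% of all wild-type endoderm regions.

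*gata2*, a GATA factor gene of ventral ectoderm, had 7 ectoderm peaks in wild-type against 0 in FS morphants, and 3 endoderm peaks in each. The 2 strongest of its wild-type ectoderm regions, at Chr4:135391447-135393235 (22.3) and Chr4:135390424-135390911 (15.2), were co-bound, and the second had endoderm values of 7.92 in wild-type against 7.01 in FS morphants. At the related *gata3*, 1 wild-type ectoderm peak of 7.26 was not called in FS morphants, and the same region had values of 16.0 (wild-type) and 16.2 (FS morphant) for endoderm. *krt18.1*, a keratin gene, had 7 endoderm and 0 ectoderm peaks in FS morphants. Its region at Chr2:147753526-147754588, co-bound, had 26.5 in wild-type ectoderm and 21.5 in wild-type endoderm, and only the endoderm peak (20.4) was called in FS morphants.

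*msx1*, a homeobox gene downstream of BMP, went from 5 to 1 ectoderm peaks, with 12.8 in wild-type ectoderm and 6.45 in FS morphant ectoderm at the region that remained, and 14.0 and 13.1 in endoderm. *grhl2*, a Grainyhead-like factor gene, had 1 ectoderm and 4 endoderm peaks. At Chr6:131043842-131044724, which overlaps an end of the *grhl2* gene and Sox3 without Foxi2, ectoderm values were 14.0 in wild-type against 19.4 in FS morphants, and a weak endoderm peak of 6.75 was called in FS morphants alone. The other wild-type ectoderm peak of *grhl2* (6.85) was not called in FS morphants, while endoderm values there were 15.8 and 16.1.

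The 3 epidermal genes named for most shared peaks kept most of their ectoderm peaks. That rule favours genes with FS morphant ectoderm peaks, and over the whole epidermal list 23 of 60 wild-type ectoderm regions were kept. *grhl1* had 4 ectoderm and 4 endoderm peaks, against 5 and 3 in wild-type. Its strongest region, at Chr5:138085469-138086710 and co-bound, had 21.2 in wild-type ectoderm and 19.4 in FS morphant ectoderm. *tfap2c*, an AP-2 factor gene, had 4 ectoderm and 2 endoderm peaks, and the co-bound region Chr10:5955306-5956117 inside it had 15 in wild-type ectoderm and 17.3 in FS morphant ectoderm, with 8.63 and 7.54 in endoderm. *foxi1*, a zygotic Foxi factor gene of ionocytes, had 3 ectoderm peaks in both conditions, all co-bound. At these 3 regions in order of position, ectoderm values were 20.0, 11.3 and 10.6 in wild-type and 11.2, 13.6 and 7.94 in FS morphants. So co-bound regions beside *foxi1*, *grhl1* and *tfap2c* were among those that kept an ectoderm peak. The listed genes with at least 2 ectoderm and 0 endoderm FS morphant peaks, chosen after their values were seen, were *krt70* (3 peaks), *krt7* (2), *sox2* (3), *sox3* (4) and *foxh1* (2).

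Neural genes resembled epidermal genes in their counts. Of 19 genes, 4 had more ectoderm and 9 more endoderm peaks, against 10 and 6 in wild-type, and ectoderm peaks fell from 53 to 25 while endoderm peaks numbered 41 and 40. Of 53 wild-type ectoderm regions near them, 23 were kept (43.4%, 31.0 to 56.7), against 44.0% of all regions. *pax3*, a paired box gene of the neural plate border, went from 9 ectoderm peaks to 1 and had 5 endoderm peaks in both conditions. The region that kept its ectoderm peak, Chr5:125004724-125005599, had 18.3 in wild-type ectoderm and 7.94 in FS morphant ectoderm, and 9.36 and 9.93 in endoderm. *eya1*, a transcriptional cofactor gene of placodes, went from 7 ectoderm peaks to 1. That peak, in Chr6:120502116-120503110 inside *eya1* and co-bound, was strong in all 4 lists, with 20.6 and 25.3 in wild-type and FS morphant ectoderm and 23.2 and 24.7 in endoderm.

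*sox3* itself had 4 ectoderm and 0 endoderm peaks in FS morphants, against 2 and 1 in wild-type. Its strongest region, at Chr8:55335282-55336485 and co-bound, had 16.2 in wild-type ectoderm and 25.3 in FS morphant ectoderm. A translation-blocking morpholino does not alter the gene, so the presence of these peaks does not measure how far Sox3 protein was depleted. Whether their change from wild-type follows from the knockdown was not tested. *otx2*, a homeobox gene of anterior neural tissue and mesendoderm, had 2 ectoderm and 5 endoderm peaks. Its ectoderm value at the gene (Chr8:104113836-104118063) was 12.5 in wild-type against 5.99 in FS morphants, with 21.7 and 23.0 in endoderm. The other ectoderm peak, at Chr8:104120762-104121752, had 14.9 in wild-type and 15.9 in FS morphants. The wild-type endoderm peak of that region (6.77) was not called in FS morphants. *foxd4l1.1*, an early neural forkhead gene, had 4 peaks in each tissue, 3 of them shared, and *gmnn*, which encodes geminin, had 2 in each, both shared.

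**Figure D5:**
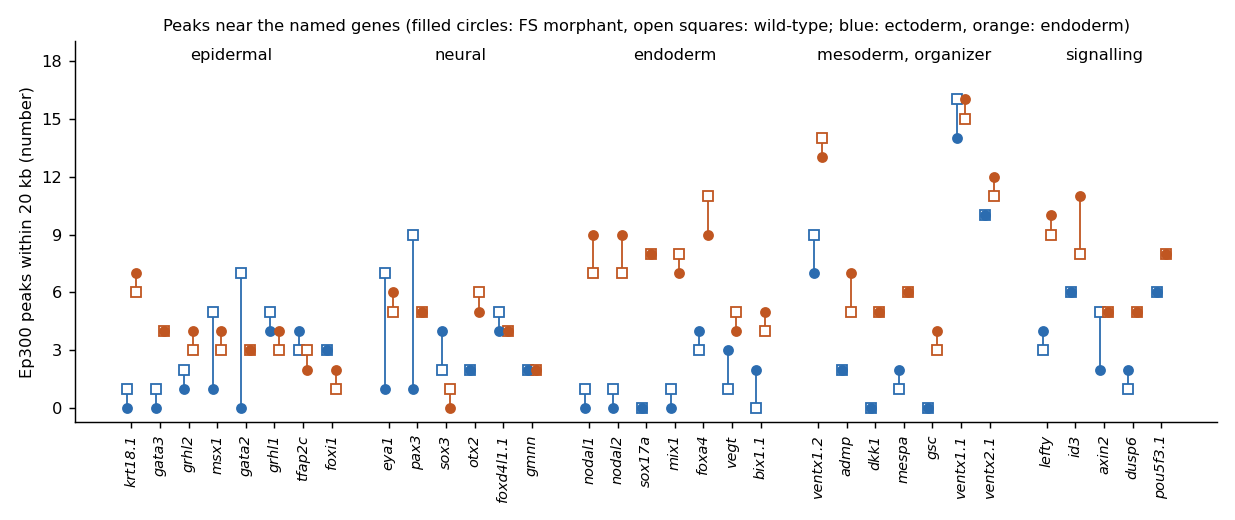
Number of Ep300 peaks within 20 kb of each named gene, grouped by list. Blue is ectoderm and orange endoderm, and lines join the wild-type (open squares) to the FS morphant count (filled circles). Ectoderm counts of *gata2*, *pax3* and *eya1* drop from 7, 9 and 7 to 0, 1 and 1, whereas endoderm counts of *nodal1*, *sox17a* and *mix1* are 9, 8 and 7 in FS morphants.

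Mesoderm and organizer genes had 35 shared regions of 86, and signalling genes 31 of 68. In FS morphants, 19 of 21 had more endoderm peaks and 1 more ectoderm peaks. Their windows held 55 ectoderm peaks, 54 of them shared, against 57 and 53 in wild-type. Of 38 wild-type ectoderm regions near these genes, 33 had an FS morphant ectoderm peak (86.8%, 72.7 to 94.2), against 44.0% over all regions. These 38 regions are not independent, because many belong to the *ventx* cluster. They also differ in class from all regions. Of the 38, 34 were in both wild-type tissues, whereas over all regions 2278 were in both and 3188 ectoderm only. Over all regions, an ectoderm peak was kept by those in both tissues that stayed in both (51.9%) or became ectoderm only (8.17%). Ectoderm-only regions kept it where they stayed ectoderm only (30.8%) or were in both tissues of FS morphants (1.79%). The shares of 86.8% and 44.0% are therefore not like for like. *ventx1.1* had 14 ectoderm and 16 endoderm peaks, and 13 of the 16 merged regions in its window were in both tissues. At Chr7:26884845-26886211 the ectoderm value was 21.3 in wild-type against 9.82 in FS morphants, with 24.4 and 22.6 in endoderm, whereas at Chr7:26875072-26876318 the ectoderm value was 20.9 and 27.4, with 26.6 and 26.9 in endoderm. Both were co-bound, so co-bound regions of 1 cluster moved to either side.

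The organizer genes *gsc* and *dkk1*, a homeobox factor and a secreted Wnt antagonist gene, had 4 and 5 endoderm peaks and 0 ectoderm peaks. *admp*, a BMP ligand gene of the organizer, had 7 endoderm and 2 ectoderm peaks, and its strongest region had 25.3 in endoderm and 10.7 in ectoderm. *mespa*, a gene of paraxial mesoderm, had 6 and 2. Of the 21 mesoderm and organizer genes, 20 were near an endoderm peak and 13 near an ectoderm peak, in FS morphants as in wild-type. Whether these peaks are regulatory regions of mesoderm was not tested. Whether mesoderm cells were in the dissected endoderm, and their part in the endoderm-only class, was also not tested.

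Of the 15 signalling and pluripotency genes, 9 had more endoderm and 4 more ectoderm peaks, against 9 and 3 in wild-type. Of 45 wild-type ectoderm regions near them, 33 were kept (73.3%, 59.0 to 84.0), against 44.0% over all regions. Here too the classes differ, since 35 of the 45 were in both wild-type tissues. *id3*, an inhibitor gene downstream of BMP, had 6 ectoderm and 11 endoderm peaks. Its region at Chr2:78342129-78343503, co-bound, had 29.5 and 34.4 in wild-type and FS morphant ectoderm and 25.9 and 26.6 in endoderm. *pou5f3.1*, an Oct4-related gene, had 6 and 8 peaks, with 6 regions in both tissues in both conditions. *lefty*, the Nodal antagonist gene, had 4 and 10, and its region at Chr5:8247761-8248710 had 9.11 in FS morphant ectoderm, no wild-type ectoderm peak, and 19.6 and 18.3 in endoderm. *dusp6*, a feedback inhibitor gene of FGF signalling, had 2 and 5. *axin2*, the Wnt feedback gene, had 5 ectoderm peaks in wild-type and 2 in the knockdown, with 5 endoderm peaks in both conditions.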

How the data were processed

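ChIP-seq lists of Ep300 from dissected stage 10.5 tissue were compared, with 1 list per group. According to the study's methods, reads were aligned to *X. tropicalis* genome version 10.0, peaks were called with MACS2 against stage- or tissue-matched input, and replicates were combined by irreproducible discovery rate. The deposited lists carry a fold enrichment (ratio) over input, used as strength, a −log10 p-value, used to shorten lists, and a score of reproducibility that the authors thresholded. H3K27ac and H3K27me3 regions were stitched and ranked by the authors with ROSE. The signal deposited with H3K27ac was not used. For endoderm the name of the library in that column is that of the animal pole, so the library behind its SE calls is not settled. The extraction protocol in the labels names a VegT antibody for every sample, and sample titles were followed. Depth per sample is not given in the lists.

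Overlap was at least 1 bp. Shares have Wilson 95% intervals. Genes were those of RefSeq UCB_Xtro_10.0, with a window of 20 kb. Named regions are the 4 strongest peaks of each class and the 3 most unequal pairs each way. Named genes are, per list, the 5 with the largest difference in peaks between tissues and the 3 with most shared peaks. Some genes that this rule names are not reported here. The members, gene lists and comparisons were chosen with earlier results of these data known. The overlap code was tested on simulated intervals. Alternatives were other overlaps, list lengths, thresholds, scalings, gene windows and the first Ep300 experiment. Python 3.11.15, pandas 2.3.3 and scipy 1.17.1 were used.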

Additional observations from a re-analysis of the deposited data

How the results depend on the processing

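No paired analysis was possible because each group is 1 list made from both replicates, and for the same reason no replicate could be left out. Motifs at summits were not run. Over 53 alternative values of 19 results, 26 stayed within counting error or the set tolerance, 26 moved and 1 reversed. Requiring an overlap of 50% of each peak gave tissue-only shares of 65.2% in ectoderm and 88.9% in endoderm, 22.6% of pairs over 1.5-fold higher in endoderm, differences in co-bound share from shared peaks of -28.1 (ectoderm-only) and -39.9 points (endoderm-only), a difference in endoderm H3K27ac of -30.2, a difference in co-bound share from wild-type of -19.2, and 41.5% of ectoderm-only peaks in neither wild-type list. Joining peaks within 1000 bp gave 52.2% and 84.1% tissue-only. Lists of equal length gave 73.8% and 74.5%. With −log10 p as strength, shared over tissue-only medians went from 1.33 to 1.65 in ectoderm and from 1.44 to 1.85 in endoderm. Scaling by the median over pairs gave 19.1% higher in endoderm and 27.1% in ectoderm, and a 2-fold limit 13.1% and 6.37%. Within strength bins the co-bound differences were -31.6 and -35.5. With all 4 lists at 3593 peaks, the difference from wild-type was -1.11 for the endoderm-only share, which reversed, and -32.3 for the co-bound share of ectoderm-only peaks, and 52.2% of ectoderm-only peaks were in neither wild-type list. With the first Ep300 experiment as wild-type, these were 3.05, -19.0 and 53.0%, and the ectoderm-only share differed by -10.3. Wild-type ectoderm regions kept near epidermal, neural and mesoderm or organizer genes, recomputed with lists of equal length as an alternative chosen after seeing the data, stayed within counting error of 38.3%, 43.4% and 86.8%. With both FS morphant lists at equal length, 12 rather than 8 epidermal genes had more ectoderm peaks, and 19 rather than 23 endoderm genes had more endoderm peaks. The causes of these shifts were not tested beyond what each setting changes. Counting intervals leave out the spread between embryos, and depth is unknown.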
